A study of Homo sapiens with 9 samples.

Results

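RUNX factors and their shared partner were followed through every probe set that the array's annotation gives to a single one of these genes. Of the 4 genes looked up, RUNX1, RUNX2, RUNX3 and CBFB, 3 had such probe sets, of 19775 genes in all. RUNX2 had 6 such probe sets, RUNX3 had 3 and CBFB had 2, giving 11 of the array's 54675. RUNX1 had 0, because each of the 13 probe sets listed for it is also listed for both LOC101928269 and LOC100506403, which are noncoding loci. RUNX2 was singled out from its own values in the comparison of 4 h of treatment with no treatment, so its probe sets are described here without a test in any comparison.

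RNA came from HT1080, an established human fibrosarcoma line, seeded on top of a thick gel of bovine fibrillar collagen. In all groups the collagen was at 1.7 mg/ml and polymerized for 4 h, with 24 h of adhesion. The untreated group, whose titles name a vehicle, has 3 arrays. The other groups, called PI 4 h and PI 24 h here, received protease inhibitors for 4 h or 24 h and have 3 arrays each. The mix held GM6001 at 100 µM, pepstatin A at 50 µM, E64 at 250 µM, and aprotinin and leupeptin at 2 µM each, and 1 label field calls it a kinase inhibitor cocktail instead. No source used here gives the nature of the vehicle or the harvest time of the untreated cells. Length of treatment and total time on the gel were not separated in the comparison of PI 24 h with PI 4 h. In bulk RNA such as this, fewer cells of a kind and less RNA per cell cannot be told apart.

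RUNX proteins are transcription factors that bind DNA through a conserved Runt domain. CBFB does not touch DNA itself but binds the Runt domain, strengthens its hold on DNA and protects the RUNX protein from breakdown. RUNX1 is best known from blood formation, RUNX2 from bone and cartilage, and RUNX3 from lymphocytes, sensory neurons and the gut lining. Each RUNX gene has an upstream and a downstream promoter, whose transcripts differ at their 5′ ends, so probe sets of 1 gene need not read the same transcripts.

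The windows before both RUNX2 starts are shown because they hold, or lack, the letters that RUNX proteins themselves recognise. They are the 250 bases before each start listed by RefSeq (GRCh38.p14), on the plus strand at chr6:45328080-45328329 and chr6:45422025-45422274. Capitals mark every match to TGTGGT or TGCGGT on either strand, so that ACCACA and ACCGCA count as well.
RUNX2 upstream start: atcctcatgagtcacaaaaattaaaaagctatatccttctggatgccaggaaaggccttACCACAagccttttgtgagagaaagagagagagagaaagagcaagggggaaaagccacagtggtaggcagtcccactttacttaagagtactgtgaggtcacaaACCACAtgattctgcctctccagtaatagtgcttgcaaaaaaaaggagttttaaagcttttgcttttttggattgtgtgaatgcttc
RUNX2 downstream start: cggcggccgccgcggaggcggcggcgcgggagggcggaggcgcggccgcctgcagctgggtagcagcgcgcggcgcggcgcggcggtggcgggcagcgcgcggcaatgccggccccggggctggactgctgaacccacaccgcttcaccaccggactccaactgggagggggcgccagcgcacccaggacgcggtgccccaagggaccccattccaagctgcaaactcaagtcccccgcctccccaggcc

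The upstream window held 2 matches and was 41.6% G or C, whereas the downstream window held 0 matches and was 78.0% G or C. RUNX3 likewise had 2 matches before its upstream start at chr1:24965011-24965260 and 0 before its downstream start. Its windows were 67.6% and 78.4% G or C, a smaller gap than for RUNX2. For RUNX1 only 1 start is listed, at chr21:34888700-34888949 on the minus strand, and its window had 0 matches. The listing does not say which RUNX1 promoter this is, and the other was not searched. Of 35116 such windows over all genes, 16.3% held at least 1 match and 1.63% held 2 or more. The longest stretch common to the windows of the RUNX2 and RUNX3 upstream starts, each with 50 bases past the start, was 18 bases long and carried 2 matches.
RUNX2 and RUNX3 shared stretch: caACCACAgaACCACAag
For RUNX2 it lies at chr6:45328344-45328361 on the plus strand, from base 15 of the transcript on. For RUNX3 it lies at chr1:24965126-24965143 on the minus strand, from position -133 relative to the start. Its 2 matches in RUNX3 are thus the 2 counted above, whereas in RUNX2 they lie past the start and were not counted above. The windows of these 2 upstream starts were the only ones of the 35116 to hold the stretch, and those include only 1 RUNX1 start. A match describes letters and is no measured binding, and no source used here says which transcripts or strands the probe sets read.

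RUNX2 was read mainly by 232231_at. Its intensity was 219.1, 234.8 and 232.5 on the untreated arrays. At 4 h it was 128.1, 113.5 and 109.1. At 24 h it was 158.9, 134.2 and 140.9. No treated array reached the lowest untreated one, and every 24 h array lay above every 4 h array. The group means were 228.8 ± 8.5, 116.9 ± 10.0 and 144.7 ± 12.8 (SD, n = 3), so that the 4 h mean was 51.1% and the 24 h mean 63.2% of the untreated mean. On the scale of log2(intensity + 16), which understates changes of dim probe sets, the differences were -0.88 ± 0.12 (SE) for 4 h against untreated, -0.61 ± 0.12 for 24 h against untreated and 0.27 ± 0.12 for 24 h against 4 h.

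Among the 12015 probe sets with a mean of at least 100, 10 had a more negative difference at 4 h and 418 did at 24 h. RUNX2 had been picked from a test with 1 probe set for each of 19775 genes, at an adjusted p of 0.0311 in limma with Benjamini-Hochberg adjustment. With all 54613 probe sets in the limma test the adjusted p was 0.0802. These are the values that led to the choice of the gene and they support nothing further.

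**Figure D1:**
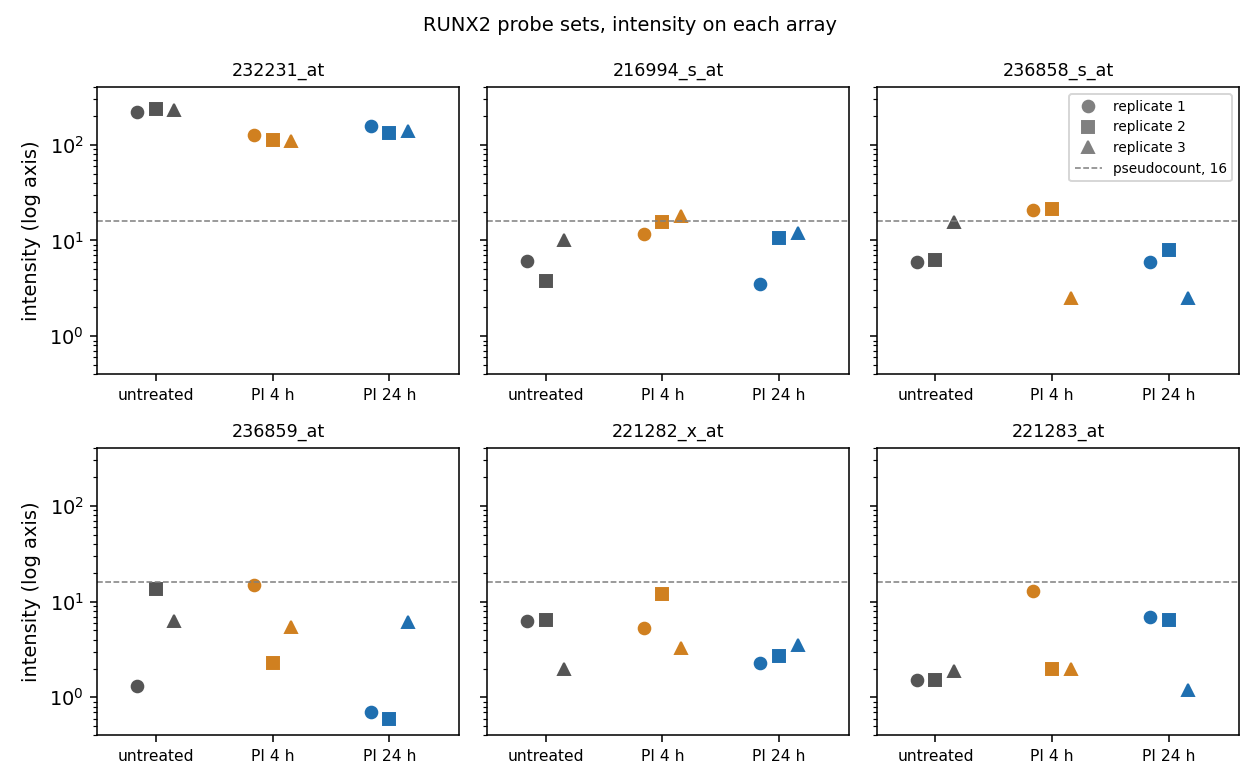
Intensity (log axis) of the 6 RUNX2 probe sets on each of the 9 arrays, with marker shape for replicate number and a dashed line at 16, the pseudocount. Only 232231_at lies clear of the line, with its 4 h arrays between 109.1 and 128.1 and its untreated arrays between 219.1 and 234.8.

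The other 5 RUNX2 probe sets were all near background. Their 45 values ran from 0.6 to 21.4, and 42 of them lay below 16, a level under which 51.3% of all probe sets had their mean. For 216994_s_at the 4 h arrays gave 11.6, 15.5 and 17.9 against 6.1, 3.8 and 10.0 untreated and 3.5, 10.7 and 12.0 at 24 h. Its 4 h arrays lay above the untreated ones, and its 24 h arrays overlapped both.

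For 236858_s_at the untreated arrays gave 6.0, 6.2 and 15.5, and the 4 h arrays 20.9, 21.4 and 2.5. The probe set 221283_at gave 1.5, 1.5 and 1.9 untreated and 12.9, 2.0 and 2.0 at 4 h, so that its higher 4 h mean came from 1 array. The means of 236859_at were 7.10 ± 6.24 untreated, 7.50 ± 6.51 at 4 h and 2.50 ± 3.20 at 24 h. Those of 221282_x_at were 4.93 ± 2.54, 6.90 ± 4.61 and 2.83 ± 0.61. In 3 of these 5 probe sets the untreated and 4 h arrays overlapped.

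The 4 h differences of these 5 probe sets were positive, from 0.02 ± 0.25 (SE) for 236859_at to 0.46 ± 0.18 for 216994_s_at, opposite in sign to that of 232231_at. At 24 h, 3 of the 5 were negative like 232231_at. Of the 6 RUNX2 probe sets, arrays of the compared groups did not overlap in 2 upwards and 1 downwards at 4 h, in 1 downwards at 24 h, and in 1 upwards from 4 h to 24 h. Over all probe sets the shares upwards were 9.47%, 11.2% and 6.08%, and downwards 6.64%, 9.84% and 7.34%. The dim ones gave levels around the pseudocount, where no detection call was used here, so these signs are given as values only. Averaged over all 6 RUNX2 probe sets, the difference at 4 h was 0.04 and that at 24 h -0.15.

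Opposite signs among probe sets were common on this array. Of 10523 genes with 2 or more probe sets, 60.6% had at least 1 with the sign opposite to the brightest at 4 h. Among 326 genes with 6 probe sets, 12 (3.68%) had all 5 others opposite to the brightest, RUNX2 being 1 of them. Of 531 genes that had 1 probe set with a mean of at least 100 and the rest, 1 or more, below 16, 40.1% had all the rest opposite. RUNX2 has 5 such others, so this share is not like for like. Among 2568 genes with 2 or more probe sets at means of at least 100 the share with opposite signs was 38.2%. The median SD within groups was 1.2 on the plain log2 scale for probe sets with a mean below 16, and 0.164 for those of at least 100.

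The gap between 232231_at and the mean of the other 5 RUNX2 probe sets was taken on each array, as a difference of log2(intensity + 16). It was 3.55, 3.51 and 3.46 untreated, 2.33, 2.34 and 2.54 at 4 h, and 3.15, 2.81 and 2.92 at 24 h. The gap was narrowest at 4 h on all 3 arrays. The difference of its means, 4 h against untreated, was -1.10, and 232231_at alone, the value RUNX2 was chosen by, had -0.88, so the separation of the groups follows largely from that choice.

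RNA quality can act unequally on probe sets of 1 gene, so the control ratios of the 5′ over the 3′ probe set were compared. For ACTB this ratio was 0.855, 0.922 and 0.902 untreated, 0.682, 0.871 and 0.615 at 4 h, and 0.710, 0.727 and 0.654 at 24 h (exact two-sided permutation p = 0.2 and 0.1 against untreated, where 3 against 3 arrays cannot give less than 0.1). For GAPDH it was 1.049 ± 0.001, 1.074 ± 0.029 and 1.079 ± 0.018 (exact p = 0.3 and 0.1). The part of these ratios in the RUNX2 values was not tested.

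CBFB, the partner that all RUNX proteins share, was measured by 202370_s_at and 206788_s_at, both with means of at least 100. The first gave 1166.8, 1175.6 and 1144.4 untreated, 1024.6, 1077.6 and 997.6 at 4 h, and 951.8, 946.2 and 989.3 at 24 h. Its groups followed each other downwards without overlap. The log2 differences were -0.17 ± 0.11 at 4 h and -0.27 ± 0.11 at 24 h against untreated (SE, limma adjusted p = 0.639 and 0.325), so the 24 h mean was 82.8% of the untreated mean and the test was not passed. With a pseudocount of 64 in place of 16 the difference at 24 h was -0.26 and passed (limma adjusted p = 0.0406).

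The second CBFB probe set, 206788_s_at, gave 164.1, 253.0 and 241.6 untreated, 153.1, 168.7 and 129.4 at 4 h, and 158.4, 152.3 and 100.5 at 24 h. Replicate 1 of the untreated group stood near the treated arrays, yet all 24 h arrays were below it. The differences were -0.49 ± 0.21 and -0.62 ± 0.21 (SE, limma adjusted p = 0.43 and 0.224). From 4 h to 24 h the differences were -0.10 ± 0.11 for 202370_s_at and -0.14 ± 0.21 for 206788_s_at (adjusted p = 0.832 and 0.888). Both CBFB probe sets thus had negative differences in all 3 comparisons, and none passed.

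Whether the CBFB probe sets differed unequally was tested on the gap between them. At 4 h the gap was wider than untreated by 0.32, with an unadjusted 95% interval of -0.18 to 0.82, and at 24 h by 0.35, with an interval of -0.15 to 0.85 (limma adjusted p = 0.681 and 0.555). Of 10523 genes tested this way, 0.0% passed in each of the 3 comparisons, and 9.9%, 12.9% and 8.19% had an unadjusted p under 0.05. An unequal response was not detected, and a widening of up to 0.85 lies within the interval.

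**Figure D2:**
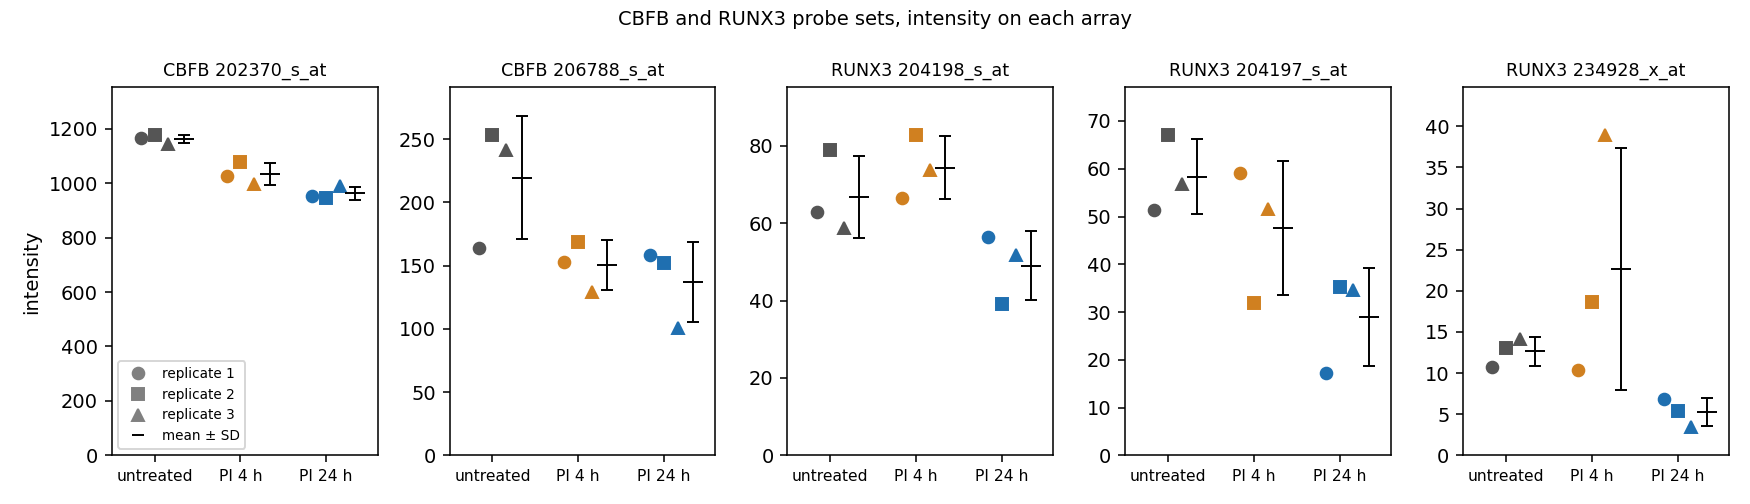
Intensity of the 2 CBFB and 3 RUNX3 probe sets on each array, each panel with its own axis from 0, with marker shape for replicate number and bars for mean ± SD (n = 3). In all 5 panels the 24 h arrays lie below the untreated arrays, and in the 3 RUNX3 panels the 4 h arrays overlap the untreated ones.

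RUNX3 was measured by 3 probe sets, none with a mean of at least 100. 204198_s_at gave 62.9, 78.8 and 58.7 untreated, 66.6, 82.7 and 73.8 at 4 h, and 56.3, 39.0 and 51.7 at 24 h. 204197_s_at gave 51.4, 67.0 and 56.7 untreated, 59.2, 32.0 and 51.6 at 4 h, and 17.2, 35.2 and 34.7 at 24 h. For both, the 4 h arrays overlapped the untreated ones, and all 24 h arrays were below all untreated ones. 234928_x_at was dim, with 10.7, 13.0 and 14.2 untreated, 10.4, 18.6 and 38.9 at 4 h, and 6.9, 5.4 and 3.5 at 24 h. Its 4 h mean was raised by replicate 3, and its 24 h arrays lay below all others.

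The signs of the RUNX3 differences at 4 h were mixed: 0.13 ± 0.15 for 204198_s_at, -0.25 ± 0.22 for 204197_s_at and 0.37 ± 0.23 for 234928_x_at (SE, limma adjusted p = 0.83, 0.747 and 0.619). At 24 h against untreated they were -0.35 ± 0.15, -0.75 ± 0.22 and -0.43 ± 0.23 (adjusted p = 0.363, 0.172 and 0.469). The 24 h mean of 204197_s_at was 49.7% of the untreated mean, with an unadjusted 95% interval of the log2 difference from -1.23 to -0.26. From 4 h to 24 h the differences were -0.48 ± 0.15, -0.50 ± 0.22 and -0.80 ± 0.23 (adjusted p = 0.369, 0.52 and 0.32). The gap between 204198_s_at and the mean of the other RUNX3 probe sets did not pass in any comparison (adjusted p = 0.946, 0.72 and 0.882 in limma).

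For RUNX3 and CBFB together, 0 of 5 probe sets passed in limma in any of the 3 comparisons. The background was low: 0.0128% of all 54613 probe sets passed at 4 h, 0.0531% at 24 h and 0.0256% between 24 h and 4 h. At an unadjusted p under 0.05 the counts were 1, 4 and 3 of 5, beside 11.0%, 13.4% and 9.5% of all probe sets. In the comparison of 24 h with untreated, 5 of 5 had groups that did not overlap, all lower, and 9.84% of all probe sets had such a separation downwards. At 4 h it was 1 of 5 lower, beside 6.64%. From 4 h to 24 h it was 3 of 5 lower, beside 7.34%. Such separation was commoner among bright probe sets: of those with a mean of at least 100, like both of CBFB, 14.6% were separated downwards at 4 h, 22.6% at 24 h and 10.4% from 4 h to 24 h. These 5 probe sets read 2 genes and are not independent.

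**Figure D3:**
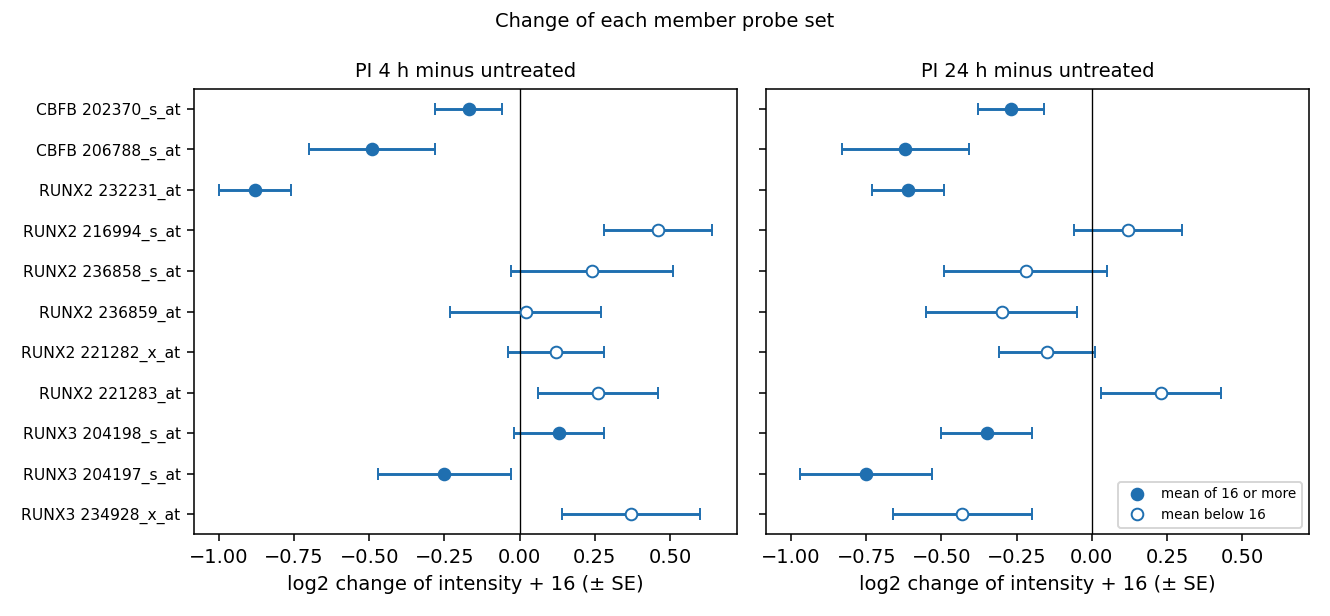
Difference in log2(intensity + 16) from untreated for the 11 probe sets at 4 h and 24 h, with bars for ± SE and open circles for means below 16. At 4 h the points spread from -0.88 to 0.46, and at 24 h all CBFB and RUNX3 points and 232231_at lie at or below -0.27.

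The 13 probe sets listed for RUNX1 together with 2 other loci are given by number only, since their signal cannot be assigned. In limma 0 passed in any comparison, and 1 had an unadjusted p under 0.05 in each, beside 11.0%, 13.4% and 9.5% of all probe sets. That was 209360_s_at at 4 h and from 4 h to 24 h, and 217263_x_at, with a mean of 11.1, at 24 h. The only one with a mean of at least 100 was 209360_s_at, with 107.9 ± 17.8 untreated, 140.4 ± 5.8 at 4 h and 107.9 ± 15.2 at 24 h. Its log2 difference at 4 h was 0.34 ± 0.15 (SE, adjusted p = 0.436 in limma), with 4 h arrays above all untreated ones. Of the 13, 5 had means below 16.

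Genes that act with RUNX factors were taken from lists chosen with earlier results of these data known, 115 genes of which 109 were measured, each by its brightest probe set. Over all of them, 0 rose and 1 fell past the threshold in limma, TGFBR2 at 24 h. At 4 h 0 of 109 passed, with 12 higher and 8 lower at an unadjusted p under 0.05. At 24 h those counts were 9 and 14, and from 4 h to 24 h, where 0 passed, 6 and 16. Over all 19775 genes measured the same way, 0.0303% passed upwards and 0.0% downwards at 4 h, 0.0152% and 0.0657% at 24 h, and 0.0101% and 0.0354% from 4 h to 24 h. At an unadjusted p under 0.05 the shares in either direction were 11.6%, 14.8% and 10.6%. By direction, 1287 of the 19775 were higher and 1002 lower at 4 h. Those counts were 1504 and 1429 at 24 h, and 943 and 1151 from 4 h to 24 h. The median log2 difference of the 109 genes was -0.02 at 4 h and -0.03 at 24 h, against 0.01 for all genes at both times.

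TGFBR2, the type II receptor for TGF-beta, measured 980.4, 1106.8 and 1099.2 untreated. At 4 h it measured 715.5, 819.8 and 699.6, and at 24 h 488.4, 577.8 and 532.4. The 3 groups did not overlap and followed each other downwards. The difference at 24 h was -0.98 ± 0.13 (SE, limma adjusted p = 0.0489), and its other probe set had the same sign. The call was lost when any 1 array other than replicate 2 of the 4 h group was left out (adjusted p between 0.0687 and 0.228), and with the replicate number as a block (adjusted p = 0.122). The difference itself stayed between -1.03 and -0.92 in all 9 of these runs. At 4 h it was -0.50 ± 0.13 (adjusted p = 0.19).

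The other 15 genes of growth and survival known as RUNX targets did not pass, and the median of the list was -0.04 at 4 h and -0.17 at 24 h. CDKN1A, an inhibitor of cyclin-dependent kinases, measured 1163.1 ± 46.7, 1020.4 ± 177.0 and 885.4 ± 15.6 (adjusted p = 0.672 and 0.265 in limma). BCL2L11, which encodes the death-promoting protein BIM, measured 79.0 ± 9.4, 71.0 ± 15.7 and 103.1 ± 10.4 (adjusted p = 0.827 and 0.426). Of its 7 probe sets, 3 had the other sign at 4 h, 3 at 24 h and 5 from 4 h to 24 h.

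Among 18 corepressors and coactivators 0 passed at either time, and the median differences were 0.10 and 0.05. KAT6A, a histone acetyltransferase that binds RUNX proteins, had the smallest p on the higher side, with 174.2, 210.7 and 161.1 untreated and 271.6, 281.7 and 333.1 at 4 h (log2 difference 0.66 ± 0.14 SE, limma adjusted p = 0.13). All 4 h arrays were above all untreated ones, and 1 of its 4 probe sets had the other sign. TLE5, a short member of the Groucho corepressor family, had the smallest p on the lower side, with 289.9, 300.2 and 330.7 untreated, 195.0, 277.2 and 157.6 at 4 h, and 151.0, 185.4 and 150.4 at 24 h (24 h difference -0.86 ± 0.19, limma adjusted p = 0.0985). Replicate 2 at 4 h stood nearer to the untreated arrays. Of the full-length Groucho proteins, TLE1 measured 279.3 ± 19.3, 266.3 ± 39.6 and 292.2 ± 6.3, and TLE3 91.0 ± 5.0, 118.4 ± 47.3 and 94.4 ± 8.2.

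The list of DNA-binding partners, which also holds coactivators such as YAP1, had 23 measured genes. Of these 0 passed, with medians of 0.19 at 4 h and -0.10 at 24 h. ETS1, an ETS factor that binds DNA jointly with RUNX1, measured 536.5 ± 74.1 untreated, 864.7 ± 63.2 at 4 h and 525.6 ± 24.2 at 24 h (4 h difference 0.68 ± 0.14 SE, limma adjusted p = 0.112). Its 4 h arrays stood above all others, and the difference from 4 h to 24 h was -0.70 ± 0.14 (adjusted p = 0.174). ELF1, another ETS factor, measured 154.9 ± 7.2, 101.8 ± 5.1 and 131.3 ± 4.9 (4 h difference -0.54 ± 0.11, limma adjusted p = 0.129). Its other probe set had a positive difference at 4 h. YAP1, a coactivator that can bind RUNX proteins, measured 558.9 ± 14.6, 393.6 ± 34.6 and 428.9 ± 46.6 (adjusted p = 0.196 and 0.237), and 1 of its 3 probe sets had the other sign at 24 h.

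Of 15 measured kinases, ligases and other modifiers of RUNX proteins 0 passed, and the medians were -0.07 and -0.10. SMURF2, of a ubiquitin ligase family that can mark RUNX proteins for breakdown, measured 558.7 ± 19.4, 774.9 ± 73.8 and 580.2 ± 71.5 (4 h difference 0.46 ± 0.14 SE, limma adjusted p = 0.254). HIPK2, a kinase of RUNX1 and its coactivators, measured 286.2 ± 35.8, 259.7 ± 9.4 and 211.9 ± 36.0 (24 h difference -0.41 ± 0.15, limma adjusted p = 0.267). Its brightest probe set was opposed in sign by 7 of its 10 at 4 h and by 5 at 24 h.

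**Figure D4:**
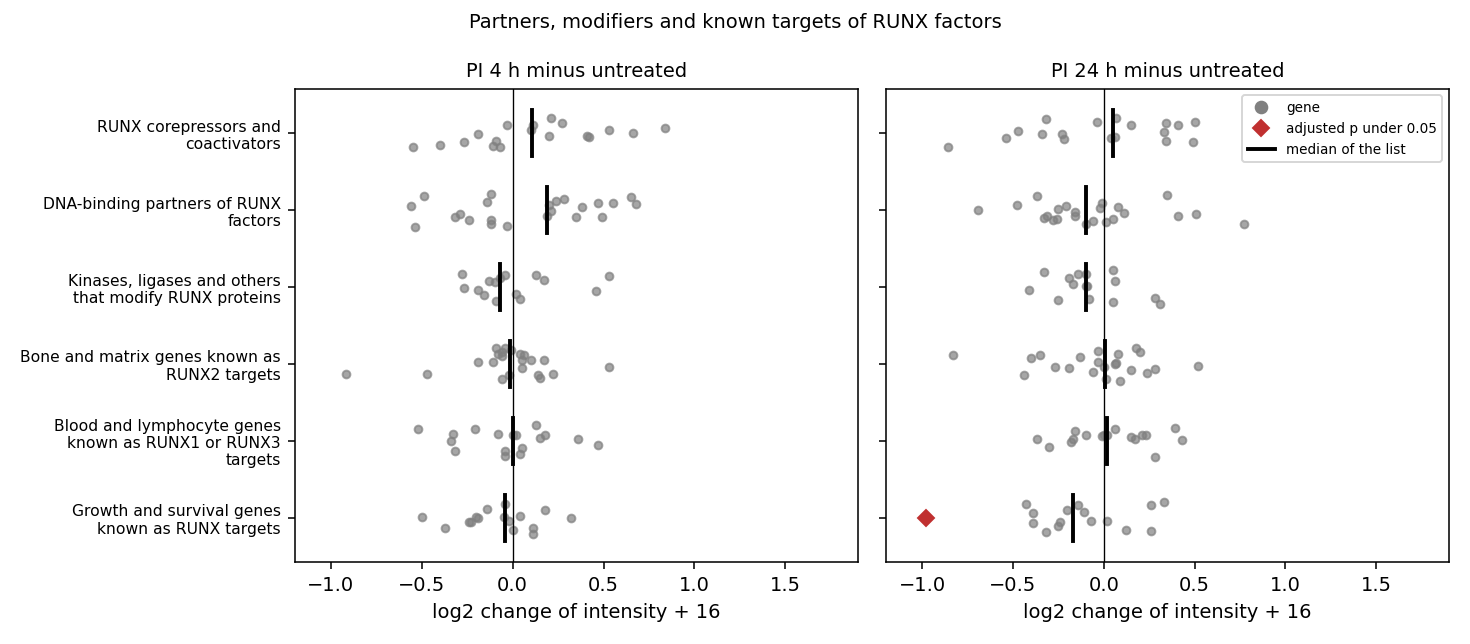
Difference in log2(intensity + 16) from untreated at 4 h and 24 h for the genes of 6 lists, 1 point a gene with vertical jitter, a black bar for the median of each list and a diamond for an adjusted p under 0.05. The only diamond is TGFBR2 at 24 h, at -0.98, and the list medians lie between -0.17 and 0.19.

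Bone and matrix genes known as RUNX2 targets were mostly dim. Of 22 measured, 11 had means below 16 and 3 had means of at least 100, and 0 passed at either time. The medians were -0.01 and 0.00. SPP1, the bone matrix protein osteopontin, measured 251.7 ± 21.8, 218.6 ± 22.7 and 254.2 ± 34.7 (limma adjusted p = 0.693 and 0.989). MMP13, a collagenase of cartilage and bone, stayed between 0.7 and 8.0 on all 9 arrays. COL1A1, a chain of type I collagen, measured 43.4 ± 3.4, 50.6 ± 15.0 and 30.1 ± 12.2 by an x_at probe set, a type that can pick up related transcripts (adjusted p = 0.877 and 0.478).

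CCR1, a chemokine receptor of the same list, measured 38.7, 34.6 and 34.3 untreated, 17.1, 17.3 and 2.6 at 4 h, and 11.2, 10.7 and 18.3 at 24 h. All treated arrays were below all untreated ones, with differences of -0.92 ± 0.22 and -0.83 ± 0.22 (SE, limma adjusted p = 0.169 and 0.149). FGFR2, a fibroblast growth factor receptor and also of that list, measured 33.2 ± 7.1, 31.5 ± 13.5 and 54.5 ± 6.2 (24 h difference 0.52 ± 0.22, limma adjusted p = 0.334), and 1 of its 11 probe sets had the other sign at 24 h.

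Of 17 measured blood and lymphocyte targets of RUNX1 or RUNX3, 11 had means below 16 and 0 passed, with medians of 0.00 at 4 h and 0.02 at 24 h. ANPEP, the surface peptidase CD13, measured 1087.2 ± 97.9, 939.6 ± 114.0 and 835.9 ± 18.8 (24 h difference -0.37 ± 0.13 SE, limma adjusted p = 0.267). Its 3 probe sets included 1 that went the other way. MPO, myeloperoxidase, measured 11.7 ± 4.5, 12.4 ± 0.8 and 20.2 ± 4.1, around the pseudocount.

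The cells carried most of the markers of a mesenchymal line. Of 10 mesenchymal and fibrosarcoma markers 9 had means of at least 100, and their summed intensity ran from 32775 to 36504 untreated, 33483 to 38328 at 4 h and 35194 to 36349 at 24 h. That sum rests mostly on VIM and LGALS1, with means of 10500 and 9590. At 24 h 7 of the 10 had negative differences, with a median of -0.31, and 0 passed in limma. At an unadjusted p under 0.05, 4 were lower and 1 higher, beside 14.8% of all genes in either direction. THY1 had -0.62, CAV1 -0.59, FN1 -0.51 and SPARC -0.31 (limma adjusted p = 0.356, 0.079, 0.203 and 0.267). THY1 was the 1 marker of the 10 with a mean under 100, at 20.5. The 3 positive ones were LGALS1 with 0.32, VIM with 0.23 and CD44 with 0.16 (limma adjusted p = 0.321, 0.52 and 0.597). The mature osteoblast markers SP7, DMP1 and ALPL had means of 3.58, 2.18 and 11.3, IBSP had 17.0 and PHEX 48.2, and the sum over 5 such markers ran from 51 to 84, 67 to 98 and 73 to 116. Of 7 leukocyte markers, CD14, PTPRC, CD3E and CD48 had means of 2.07, 7.16, 5.49 and 13.5, while LAPTM5 had 29.0 and CD3D 58.7. LCP1, an actin bundler also made by tumour lines, had 1300, and it made up most of a summed level of 1550 to 1648, 1156 to 1301 and 1267 to 1496. Of 8 epithelial markers 6 had means below 16, among them EPCAM at 3.98 and CDH1 at 6.47. KRT8 and KRT18 were bright, with means of 553 and 3910. They made up most of a summed level of 4134 to 4646, 4441 to 5272 and 3989 to 4476. At 24 h KRT8 had -0.74 and KRT18 0.06 (limma adjusted p = 0.0949 and 0.901). Of 6 endothelial markers 4 had means below 16, with sums of 50 to 62, 80 to 128 and 88 to 134. The part of these differences in the RUNX values was not tested.

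The genes whose pattern was most like each member were sought among single-gene probe sets with a mean of at least 100, by Pearson's r over the 9 arrays. These correlations are descriptions over arrays that share the 3 groups and the scaling. For RUNX2's 232231_at, out of 10725 candidates, they were MAPRE1 (r = 0.956, Spearman's rho = 0.933), UBE2Q1 (0.955 and 0.917), IPO5 (0.942 and 0.967), NCLN (0.94 and 0.883) and NAA50 (0.937 and 0.75). MAPRE1, which encodes a protein that tracks microtubule ends, measured 837 ± 35, 663 ± 50 and 689 ± 34, and IPO5, an importin, 745 ± 37, 602 ± 32 and 657 ± 36. They share the lowest mean at 4 h with 232231_at, over a smaller span.

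For CBFB's 202370_s_at the leading genes were NEFL (r = 0.99, rho = 0.917), PHLDA1 (0.979 and 0.967), TMEM158 (0.977 and 0.967), FUT8 (0.976 and 0.95) and ITPR3 (0.973 and 0.9). NEFL, the light neurofilament chain, measured 1730 ± 48, 1120 ± 179 and 798 ± 79, a steeper descent over the groups than that of CBFB. For RUNX3's 204198_s_at they were SMAD7 (r = 0.931, rho = 0.883), F3 (0.917 and 0.933), CD109 (0.915 and 0.917), LIF (0.911 and 0.867) and HOXB4 (0.897 and 0.917). SMAD7, the inhibitory SMAD, measured 122 ± 16.9, 132 ± 7.5 and 86.5 ± 14.6, and F3, tissue factor, 149 ± 3, 177 ± 27 and 85.4 ± 15.9. In both, as in 204198_s_at, the 24 h mean was the lowest and the 4 h mean the highest. Among the members themselves, r was 0.726 between CBFB and RUNX2 (rho = 0.5) and 0.552 between CBFB and RUNX3 (rho = 0.667). Between RUNX2 and RUNX3 it was -0.004 (rho = -0.183). By rho the CBFB pairs come in the other order.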

How the data were processed

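The deposited values are linear intensities, 1 per probe set and array, on 9 one-colour Affymetrix arrays with 3 per group. The submitters' processing notes name R 2.9.2 and RMA with no role. The authors' scaling gave every array a mean of 100 after trimming 2% at each end, which removes changes in total RNA, and the median intensity per array ran from 14.2 to 18.2. Detection calls were not used here. The number of arrays limits the precision. Sample titles gave the groups; the design text calls the replicates biological.

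Probe sets were named by the supplied platform annotation: 41091 of 54613 (62 controls left out) named 1 gene, 1801 several and 11721 were not listed. Of the first, 41037 were updated through RefSeq identifiers. Intensities were taken to log2(intensity + 16). With group means as the only terms, all 9 arrays and all 54613 probe sets entered 1 fit in limma 3.58.1 in R 4.3.3 (lmFit, eBayes), each comparison adjusted by Benjamini-Hochberg over all of them at 0.05, two-sided. Gaps between probe sets of a gene were fitted likewise over 10523 genes. The fit was tested on simulated data. Exact permutation tests used SciPy 1.17.1.

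The members and lists were chosen with earlier results of these data known. Text names every member probe set, genes past the threshold or with the smallest p in each direction of a list, 8 genes whatever their test, and 5 genes most like each member. Promoter windows are RefSeq's, GRCh38.p14, with 5 windows for RUNX1, RUNX2 and RUNX3. Alternatives were pseudocounts of 1 and 64, quantile normalization, median centring, a filter at the 40th percentile, the compared groups only, the replicate block, each array left out, 1 probe set a gene, and the mean over probe sets.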

Additional observations from a re-analysis of the deposited data

How the results depend on the processing

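The count of RUNX3 and CBFB probe sets past the threshold was 0 under every alternative except a pseudocount of 64, where 202370_s_at of CBFB passed at 24 h (count of 1, adjusted p = 0.0406 in limma). Unequal differences between probe sets of RUNX3 or CBFB passed under none of the alternatives run for them; they were not run with 1 probe set a gene or the mean over probe sets, which leave no such difference. Of the RUNX partners and targets, a pseudocount of 64 called 4 at 4 h, 4 at 24 h and 2 between 24 h and 4 h. At 24 h the count was 0 with a pseudocount of 1, quantile normalization, the compared groups only and the replicate block, and 0 to 2 without 1 array; the 2 were TGFBR2 and TLE5, without replicate 2 of the 4 h group. Over all probe sets, 7, 29 and 14 passed in the 3 comparisons, against 338, 1204 and 196 with the higher pseudocount. The filter gave 84, 334 and 27, the compared groups only or a pseudocount of 1 gave 0, 0 and 2, and the replicate block gave 1, 0 and 3. With 1 probe set a gene 50, 93 and 28 passed, with the mean over probe sets 26, 49 and 28, and with median centring 4, 31 and 11. Without 1 array the counts were 0 to 5, 0 to 251 (the highest without replicate 2 of the 4 h group) and 2 to 4. The cause was not tested.

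For 232231_at of RUNX2 the differences were -0.70 at 4 h and -0.49 at 24 h with a pseudocount of 64. The mean over all 6 RUNX2 probe sets gave 0.04 at 4 h, -0.15 at 24 h and -0.19 from 4 h to 24 h; this mean weights 5 near-background probe sets equally with 232231_at. Without 1 array they were -0.94 to -0.84, -0.67 to -0.56 and 0.21 to 0.33.

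Of 1275 values for named genes under the alternatives, 1223 kept their direction and side of the threshold. A further 8 passed only under the alternative, and 12, all of TGFBR2 at 24 h, lost the call. The 8 were of CBFB, KAT6A, TLE5, ETS1, ELF1 and TGFBR2. Another 32 changed sign, none of them past the threshold. With the mean over probe sets these were SMURF2 at 24 h (-0.04), HIPK2 at 4 h (0.24) and 24 h (0.04), FGFR2 at 4 h (0.03), MPO at 4 h (-0.09), TLE1 at 24 h (-0.16), COL1A1 at 4 h (-0.01), and BCL2L11 at 4 h (0.12) and from 4 h to 24 h (-0.03). With median centring they were SMURF2 (-0.01), TLE3 (-0.01) and SPP1 (-0.05) at 24 h and MPO at 4 h (-0.03), and with quantile normalization MPO at 4 h (-0.02). Without 1 array, the values at 4 h ran from -0.26 to 0.17 for FGFR2, -0.08 to 0.15 for MPO, -0.14 to 0.05 for TLE1, -0.02 to 0.02 for MMP13, -0.03 to 0.26 for COL1A1 and -0.26 to 0.01 for BCL2L11. At 24 h they ran from -0.09 to 0.09 for ETS1 and for SPP1, -0.01 to 0.15 for SMURF2, -0.00 to 0.10 for TLE3 and -0.01 to 0.25 for MMP13. From 4 h to 24 h they ran from -0.24 to 0.05 for 206788_s_at of CBFB, -0.18 to 0.24 for CCR1, -0.46 to 0.04 for TLE3 and -0.00 to 0.26 for MMP13.

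Replicate numbers are shared by the groups. Of 9 same-numbered pairs, 4 had deviations correlated over 0.1 (range -0.273 to 0.19), against 3 of 18 other pairs (-0.19 to 0.392). These values do not settle whether the numbers pair arrays. The main fit left the numbers out, and the replicate block was run as an alternative. With the replicate block 0 RUNX3 or CBFB probe sets passed in any comparison, and 232231_at kept -0.88, -0.61 and 0.27. Signal near background limits 6 of the 11 probe sets.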
